A study of Mus musculus with 5 samples.

Results

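The 8 genes described here, Pou5f1, Nanog, Sox2, Klf4, Esrrb, Zfp42, Sall4 and Dnmt3b, belong to the network that keeps mouse embryonic stem cells (ESCs) pluripotent or serve as its markers. Chromatin immunoprecipitation with sequencing (ChIP-seq) had been used to map 2 histone marks in TBV2 cells, an ESC line of the 129/SvP strain. The control cells received no L-proline over 5 days of culture, and the treated cells (PiCs, for L-proline-induced cells) received it at 500 µM over the same time. All cells were plated sparsely on gelatin without feeders, in medium with leukemia inhibitory factor and no non-essential amino acids. Each mark and condition had 1 library, so no difference between ESCs and PiCs has a replicate check and no p-value is given. The input library of untreated cells was not analysed here. The genes were chosen by name, with earlier results of these data known. A called island, a stretch of enriched chromatin, belonged to a gene when it overlapped the gene's span on mouse build mm9 by 1 bp or more. This rule took 18 of the 29084 H3K36me3 islands, 9 in each condition, and 2 of the 44331 H3K9me3 islands, both in ESCs.

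H3K36me3, a trimethyl mark on histone H3, is laid down behind elongating RNA polymerase and typically fills the bodies of transcribed genes while sparing their promoters. H3K9me3 is typical of silent chromatin and repeats. In ESCs the transcription factors Oct4 (the product of Pou5f1), Sox2 and Nanog bind to their own and each other's regulatory regions. Klf4, Esrrb and Zfp42 are associated with the naive state, whereas Dnmt3b rises as cells leave it.

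The H3K36me3 lists held 12280 islands in ESCs and 16804 in PiCs, with 26055650 and 15787192 tags inside them. The H3K9me3 lists held 18464 and 25867 islands, with 1511058 and 3514489 tags. A tag is a sequenced read assigned to an island. Tags outside islands are not counted in these sums, and the total depth is not known. Tags per kb are therefore ranked within a list and not compared from list to list.

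All 8 genes carried H3K36me3 in both conditions. They were chosen as members or markers of the pluripotency network, with Dnmt3b among them although it rises as cells leave the naive state. Islands touched 8 of 8 spans in ESCs and 8 of 8 in PiCs, where 12.2% and 12.8% of all 10 kb tiles of the genome were touched. At least 50% of the span was covered for 7 of 8 genes in each condition, against 9.05% of tiles in ESCs and 8.89% in PiCs. The exception was Esrrb, the longest gene. These tiles include sequence without genes, and no count over other transcribed genes was made because no gene positions of build mm9 were at hand. With lists cut to equal length by density, 6 of 8 spans were touched in PiCs, where Sox2 and Klf4 had no island left. The median cover of the 8 spans was 76.2% in ESCs and 79.6% in PiCs.

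**Figure D1:**
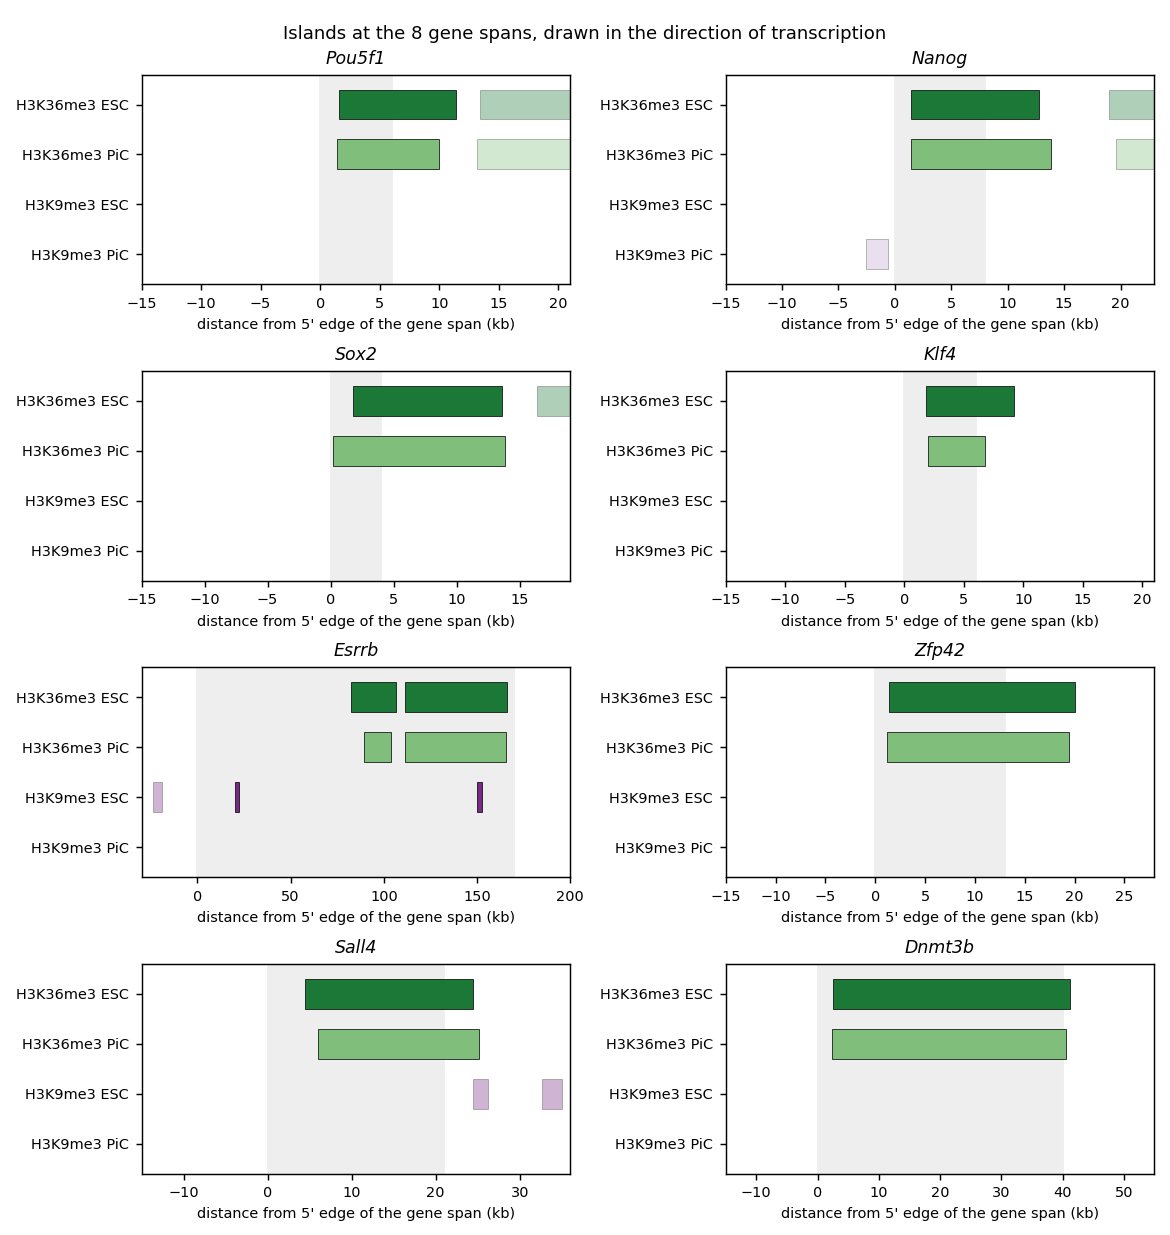
Islands of the 4 lists at each gene, with distance from the 5′ edge of the gene span in kb on the horizontal axis, drawn in the direction of transcription. Grey marks the span, full colour the islands that touch it and pale colour other islands. H3K36me3 leaves the 5′ edge free at all 8 genes and passes the 3′ edge at 7, while H3K9me3 touches Esrrb in ESCs alone.

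Pou5f1, Nanog and Sox2 encode the core transcription factors, and each lay under a single island in each condition. The Pou5f1 span (chromosome 17, 35.642 to 35.648 Mb) was met in ESCs by a 9.8 kb island at chr17:35643601-35653400 with 2199 tags. In PiCs it was met by an 8.6 kb island at chr17:35643401-35652000 with 1231 tags. Both islands covered most of the span, 73.3% in ESCs and 76.7% in PiCs. Only 4.4 kb of the ESC island and 4.6 kb of the PiC island lay inside it. The rest ran past the 3′ edge, on the side where Tcf19 is the next coding gene in the RefSeq order. Tags inside and outside the span were not counted apart.

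The Nanog span (chromosome 6, 122.657 to 122.665 Mb) carried an island of 11.4 kb in ESCs at chr6:122658401-122669800 with 2411 tags. The PiC island began at the same base and was 12.4 kb wide (chr6:122658401-122670800, 1229 tags). Cover of the span was 82.5% in each condition. At Sox2 (chromosome 3, 34.548 to 34.552 Mb), a short gene that lies within the non-coding gene Sox2ot, most of the island lay outside the span. The ESC island was 11.8 kb wide (chr3:34549801-34561600, 1217 tags) and held 2.2 kb of the 4 kb span, or 55%. The PiC island was 13.6 kb wide (chr3:34548201-34561800, 471 tags) and held 3.8 kb, or 95%. ChIP tags carry no strand of transcription, so the parts of Sox2 and Sox2ot in this signal cannot be told apart.

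Klf4 encodes a zinc finger factor used in reprogramming, and its islands were the narrowest at any of the 8 genes in each list, the 2 Esrrb islands included. Its span (chromosome 4, 55.540 to 55.546 Mb) met an ESC island of 7.4 kb at chr4:55536801-55544200 with 722 tags. The PiC island measured 4.8 kb at chr4:55539201-55544000 and held 184 tags. Cover of the span was close in both, 70% and 66.7%, because the ESC island was longer mainly past the gene's 3′ end.

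Esrrb, which encodes an orphan nuclear receptor, was marked over its 3′ part alone. Its span (chromosome 12, 87.700 to 87.870 Mb) held 2 islands in each condition. The 3′ island was almost identical in both, with 54.6 kb at chr12:87811601-87866200 and 14003 tags in ESCs, and 54 kb at chr12:87811601-87865600 and 5588 tags in PiCs. The 5′ island was sparser and differed more, with 23.8 kb at chr12:87782601-87806400 and 1800 tags in ESCs. In PiCs it measured 14.4 kb at chr12:87789201-87803600 with 519 tags. The first 82.6 kb of the span had no H3K36me3 island in ESCs, and the first 89.2 kb had none in PiCs. In all, 46.1% of the span was covered in ESCs and 40.2% in PiCs. Of all 170 kb tiles, 5.75% in ESCs and 7.52% in PiCs held at least as much.

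Zfp42, also called Rex1, encodes a zinc finger protein widely used as a marker of undifferentiated ESCs. Its span (chromosome 8, 44.380 to 44.393 Mb) lay under an 18.6 kb island in ESCs (chr8:44373001-44391600, 6897 tags) and an 18.2 kb island in PiCs (chr8:44373601-44391800, 1938 tags). Cover of the span was 89.2% and 90.8%. Extent was thus nearly equal in both conditions at this gene.

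Sall4 encodes a zinc finger factor of the spalt family, and Dnmt3b a DNA methyltransferase that sets new methylation and whose PWWP domain binds H3K36me3. The Sall4 span (chromosome 2, 168.573 to 168.594 Mb) met a 20 kb island in ESCs at chr2:168569601-168589600 with 5082 tags. The PiC island was 19.2 kb wide (chr2:168568801-168588000, 3276 tags), and cover was 79.0% and 71.4%. Dnmt3b (chromosome 2, 153.474 to 153.514 Mb) was filled almost from end to end. Its islands were 38.6 kb in ESCs (chr2:153476601-153515200, 4577 tags) and 38.2 kb in PiCs (chr2:153476401-153514600, 4180 tags), covering 93.5% and 94% of the span. Among all tiles of 40 kb, 1.77% in ESCs and 1.28% in PiCs held at least as much H3K36me3.

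The islands lay towards the 3′ side of 7 genes, leaving the 5′ edge free and passing the 3′ edge. Of all touched 10 kb tiles, which have no strand, 24.0% in ESCs and 24.4% in PiCs were free at their first base and passed at their end. With tiles as wide as the single spans this share ran from 14.7% to 29.0% in ESCs. In ESCs the first island base lay inside the span at 8 of 8 genes, a median of 1.8 kb from its 5′ edge. The smallest distance was 1.4 kb, at Nanog and Zfp42, and Sall4 had 4.4 kb. In PiCs the median was 1.7 kb. At the other end, the last island base passed the 3′ edge at 7 of 8 genes in both conditions, with a median of 4.1 kb in each. Sox2 had the longest reach, 9.6 kb in ESCs and 9.8 kb in PiCs. Zfp42 followed with 7 kb and 6.4 kb. Esrrb was the exception, since its islands ended 3.8 kb and 4.4 kb before the 3′ edge.

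The spans are rounded and exceed the RefSeq length of the gene (assembly GRCm38.p6) by 0.661 kb at Klf4 to 9.49 kb at Esrrb. If that whole excess lay on the 5′ side, the island would still begin inside the gene at 8 of 8 genes in ESCs and 7 of 8 in PiCs. Sox2 in PiCs was the exception, because its island began 0.2 kb from the edge of the span. The margin in PiCs was only 0.146 kb at Pou5f1 and 0.143 kb at Zfp42. Both are below the 200 bp grid of the islands, so these PiC starts are not settled. The smallest margin in ESCs was 0.267 kb, at Sox2. This use of gene lengths takes each gene to have the same length on mm9 and to lie wholly within its span.

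**Figure D2:**
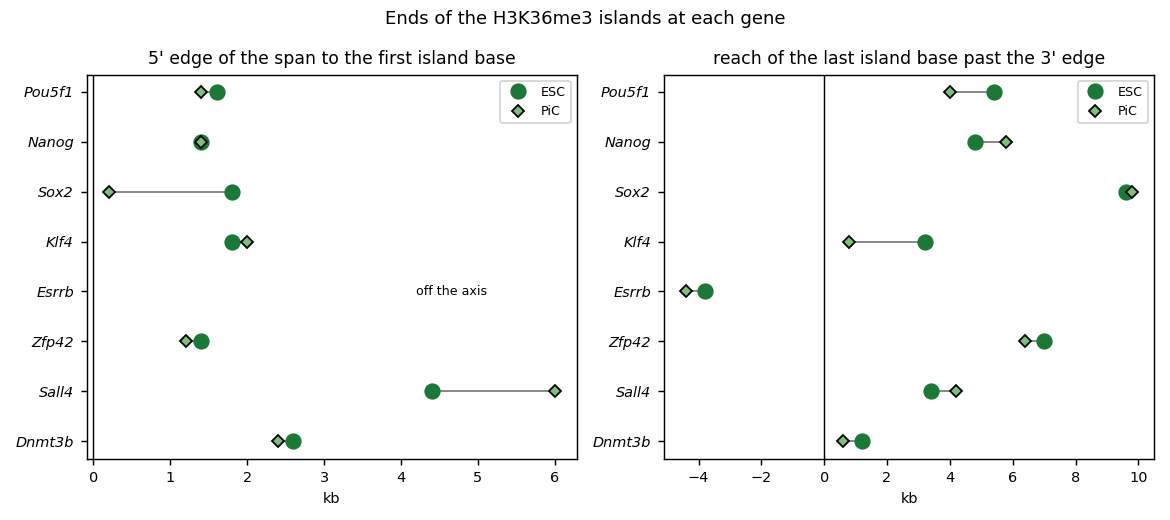
Distance in kb from the 5′ edge of the span to the first H3K36me3 island base (left, positive inside the span) and reach of the last island base past the 3′ edge (right, positive outside), with circles for ESCs and diamonds for PiCs, 1 library each. On the left Esrrb (82.6 and 89.2 kb) is off the axis. The largest moves at the 3′ end are those of Klf4 and Pou5f1.

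Sequences around RefSeq gene starts were also searched for CG pairs and short motifs. RefSeq promoters of GRCm38.p6, 250 bases before to 50 after a start, were matched for 7 of the 8 genes (10 starts), all but Sall4. Those of Nanog, Zfp42 and Klf4 are printed, 5′ to 3′ on the gene's strand, because they hold the fewest and the most CG pairs of the set and the motifs searched. In Nanog the capitals mark the joint octamer and Sox motif, in Zfp42 the octamer ATGCAAAT, each searched on both strands and found here on the opposite one as TTTGCATTACAATG and ATTTGCAT, and in Klf4 every CG.
Nanog, GRCm38.p6 chr6:122707239-122707538, plus strand: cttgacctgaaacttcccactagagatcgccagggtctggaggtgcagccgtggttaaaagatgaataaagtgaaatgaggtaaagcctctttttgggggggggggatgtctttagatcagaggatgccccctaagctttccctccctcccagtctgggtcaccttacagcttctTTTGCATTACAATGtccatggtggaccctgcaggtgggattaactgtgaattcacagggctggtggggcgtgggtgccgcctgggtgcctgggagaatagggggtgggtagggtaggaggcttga
Zfp42, GRCm38.p6 chr8:43306960-43307259, minus strand: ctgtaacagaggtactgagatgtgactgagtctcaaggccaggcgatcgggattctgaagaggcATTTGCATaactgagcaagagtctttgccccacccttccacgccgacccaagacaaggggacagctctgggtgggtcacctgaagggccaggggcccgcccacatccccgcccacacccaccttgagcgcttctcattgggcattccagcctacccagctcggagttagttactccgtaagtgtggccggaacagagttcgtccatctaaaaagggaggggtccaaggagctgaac
Klf4, GRCm38.p6 chr4:55532426-55532725, minus strand: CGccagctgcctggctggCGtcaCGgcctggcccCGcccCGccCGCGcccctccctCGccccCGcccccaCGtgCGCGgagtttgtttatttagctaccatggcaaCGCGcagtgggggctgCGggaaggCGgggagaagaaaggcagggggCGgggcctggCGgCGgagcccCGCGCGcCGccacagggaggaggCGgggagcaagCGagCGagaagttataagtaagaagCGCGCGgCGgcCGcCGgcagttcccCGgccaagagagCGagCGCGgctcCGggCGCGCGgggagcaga

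The 2 RefSeq starts of Nanog were the only promoters among 32851 that held the joint motif on either strand, and their windows overlap, so this is 1 match. The joint motif was searched as a fixed string with 1 free base, so looser forms of it were not counted. Zfp42 was the only gene of the set with the plain octamer, which 1.74% of all promoters held. TATAAA, present in 13.6% of promoters, was in none of the 10. CG pairs numbered 4 in Nanog, 6 and 11 at the 2 starts of Pou5f1, 7 at each start of Esrrb and 11 in Zfp42. They numbered 27 in Sox2, 30 in Dnmt3b and 40 in Klf4, where the median of all promoters was 7. The set thus held starts poor and rich in CG. Their windows were not placed on mm9, so no single start was compared with an island. These matches are letters in a window and were not tested for use by any factor.

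The density of tags differed between the genes within each list. It is the density of the whole island, which at 7 genes also holds sequence past the span. In ESCs the order ran from Zfp42 at 370.8 tags per kb (exact 95% Poisson interval 362.1 to 379.7) to Esrrb at 256.5 for its 3′ island, Sall4 at 254.1, Pou5f1 at 224.4 and Nanog at 211.5. Dnmt3b at 118.6, Sox2 at 103.1 and Klf4 at 97.6 followed. The median of the ESC list was 71.3 tags per kb, so all 8 genes were above it. Zfp42 ranked 67 of 12280, within the top 0.546%. Sall4 and the 3′ island of Esrrb were in the top 4%, at 3.95% and 3.79%, and Pou5f1 and Nanog at 6.08% and 7.32%. Dnmt3b stood at 25.6%, Sox2 at 31.4% and Klf4 at 33.9%.

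In PiCs Sall4 came first with 170.6 tags per kb (164.8 to 176.6), rank 133 of 16804 or the top 0.791%. Pou5f1 followed with 143.1, in the top 2.23%. Dnmt3b at 109.4, Zfp42 at 106.5, the 3′ island of Esrrb at 103.5 and Nanog at 99.1 lay close together, between 7.19% and 9.84% from the top. Klf4 at 38.3 and Sox2 at 34.6 were below the list median of 48.9, at 74.8% and 84.4% from the top. So was the 5′ island of Esrrb, at 0.737 times the list median and 80.7% from the top. In ESCs 5 of the 8 genes were in the top 10% of their list, and in PiCs 6 of 8, where by construction 10% of all islands are. Among islands within 2-fold of the same width, the PiC count was 2 of 8, Sall4 and Pou5f1, and the ESC count was 5 of 8. The lists differ in length, so these places show no change between conditions.

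Neighbours in the order, where Esrrb stands by its 3′ island, were not always apart. In ESCs the interval of the ratio of neighbouring densities included 1 for Esrrb over Sall4 (1.01, interval 0.977 to 1.04) and for Sox2 over Klf4 (1.06, 0.963 to 1.16). In PiCs it included 1 for each step from Dnmt3b through Zfp42 and Esrrb to Nanog, and for Klf4 over Sox2. The step from Nanog to Klf4 was the widest of the PiC order, with a ratio of 2.59 (2.21 to 3.04). These intervals cover counting error only, and PCR copies of a fragment are not independent tags.

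**Figure D3:**
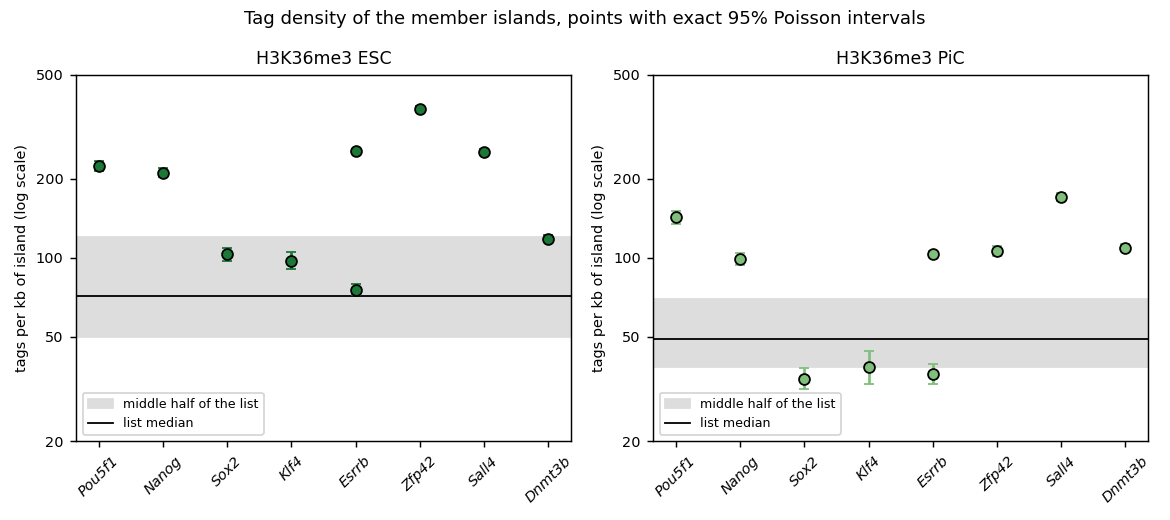
Tags per kb of each H3K36me3 island (log scale) at the 8 genes in ESCs (left) and PiCs (right), 1 library each, with exact 95% Poisson intervals. The line is the median of the list and the grey band its middle 50%. Esrrb has 2 points for its 2 islands. Sox2, Klf4 and the 5′ island of Esrrb lie above the ESC median and below the PiC median.

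Ratios between genes of the same list do not depend on a scale factor common to that list. Esrrb enters the pairs with its 3′ island, the denser one. Zfp42 held 3.13 times the density of Dnmt3b in ESCs (interval 3.01 to 3.25) and 0.973 times in PiCs (0.922 to 1.03). Zfp42 over Sall4 was 1.46 (1.41 to 1.51) in ESCs and 0.624 (0.590 to 0.660) in PiCs. Of the 28 pairs of genes, 8 had a different order in the lists. In 5 of them both intervals, not adjusted for the number of pairs, lay on opposite sides of 1. Over all pairs drawn from the 7713 one-to-one islands of the lists (an ESC and a PiC island that meet only each other), 17.2% had a different order and 7.89% had it beyond counting error. The 28 pairs share 8 genes and are not independent, so nothing particular to these genes is read from the counts.

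In the PiC list Pou5f1 was denser than Zfp42 and than Esrrb, Sall4 was denser than Zfp42, and Dnmt3b was denser than Nanog and than Esrrb, all opposite to the ESC list. Pou5f1 over Zfp42 was 0.605 (0.577 to 0.635) in ESCs and 1.34 (1.25 to 1.44) in PiCs. Nanog over Dnmt3b was 1.78 (1.70 to 1.87) and 0.906 (0.849 to 0.965). Sox2 and Klf4 were below each of the other 6 genes in both lists, with Esrrb taken by its 3′ island. Signal outside the antibody's target also adds to these densities, and its part was not tested without the input. With 1 library each, the spread between cultures is not known.

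**Figure D4:**
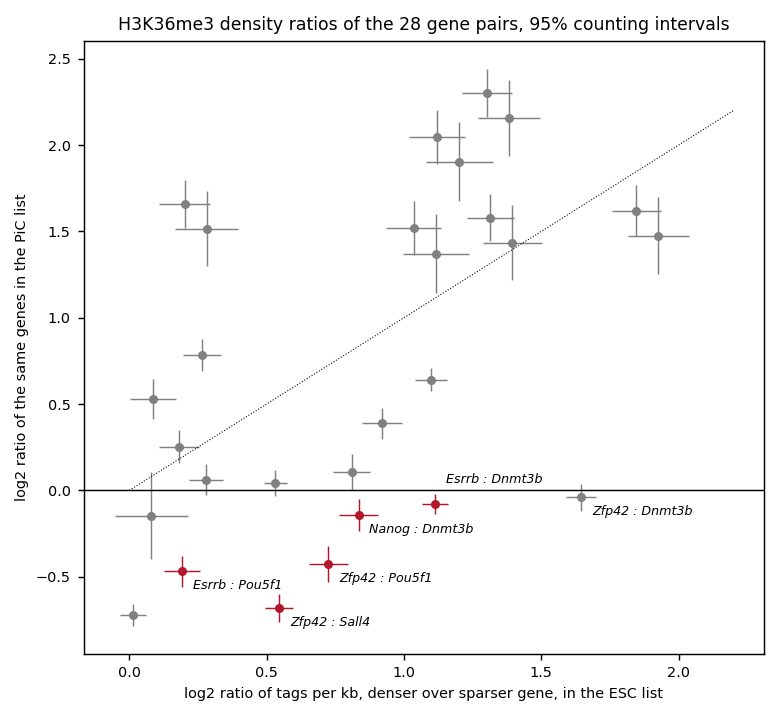
Each of the 28 gene pairs as the log2 ratio of tags per kb, denser over sparser gene of the ESC list, in ESCs (horizontal) and PiCs (vertical), with 95% counting intervals. Esrrb enters with its 3′ island. The dotted line marks equal ratios. Points below 0 changed order, and the 5 red ones did so with both intervals clear of 0.

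The extent of H3K36me3 at these genes was compared between ESCs and PiCs by covered length and by island edges. A difference of 2-fold or more in covered length was found at 0 of 8 spans, and at 2 of 8, Sox2 and Klf4, with lists of equal length. Among 10 kb tiles touched in either list, 14.2% had such a difference with more in ESCs and 17.0% with more in PiCs. Tiles touched only by the end of an island count here too, so these shares are not a like background. No span was held by more islands in PiCs than in ESCs, where 17.7% of all ESC islands met 2 or more PiC islands. Each of the 9 ESC islands met exactly 1 PiC island that met no other, as did 62.8% of all ESC islands. Within these pairs, 7 of 9 had at least 80% of their joint length in common, against 63.9% of 7713 pairs, so the share was near the background. The median shift of an edge was 0.6 kb for the 18 edges of these islands and 0.6 kb for all pairs.

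Klf4 and the 5′ island of Esrrb were the exceptions. Klf4 had 64.9% of the joint length in common, with the PiC island 0.649 times as wide, and its 3′ edge lay 2.4 kb nearer to the gene. Of all one-to-one pairs, 21.6% had less in common than Klf4 and 18.8% less than the 5′ island of Esrrb. The 5′ island of Esrrb had 60.5% in common and was 0.605 times as wide. The 3′ island of Esrrb and Dnmt3b were the most alike, with 98.9% and 97.9%. As a share of the span Sox2 differed most in cover, with 55% in ESCs and 95% in PiCs, and in length Esrrb did, with 78.4 kb and 68.4 kb. With 1 library a condition these differences cannot be set against the spread between cultures.

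H3K9me3 islands touched 1 of 8 spans in ESCs, Esrrb, and 0 of 8 in PiCs, where 7.98% and 11.6% of 10 kb tiles were touched. Cover of 50% or more was found at 0 of 8 spans in both conditions, against 0.895% of tiles in ESCs and 2.18% in PiCs. A span as long as that of Esrrb is often touched, as were 54.5% of 170 kb tiles in ESCs and 63.4% in PiCs. Both Esrrb islands were narrow and sparse. One, at chr12:87720401-87722400, was 2 kb wide with 39 tags (19.5 per kb, interval 13.9 to 26.7) in the part of the gene without H3K36me3. The other, at chr12:87850201-87852800, was 2.6 kb wide with 36 tags (13.8 per kb, 9.70 to 19.2) inside the 3′ H3K36me3 island of the same cells. The ESC list median was 25.5 tags per kb, and they ranked 75.0% and 94.6% from the top. Of all ESC H3K36me3 islands 10.2% touched an H3K9me3 island, as did 1 of the 9 here, and of all PiC H3K36me3 islands 8.86% did, with 0 of the 9 here. In PiCs the nearest H3K9me3 island lay 244.8 kb from the Esrrb span.

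Just outside the spans, within 5 kb, 2 further H3K9me3 islands were found. A PiC island of 2 kb at chr6:122654401-122656400 with 94 tags lay 0.6 kb before the 5′ edge of the Nanog span and 2 kb from its H3K36me3 island. Its 47 tags per kb (38.0 to 57.5) placed it 14.7% from the top of its list. In ESCs the nearest H3K9me3 island was 77.6 kb from that span. At Sall4 an ESC island of 1.8 kb at chr2:168567801-168569600 with 41 tags ended where the H3K36me3 island began, 3.4 kb past the 3′ edge. At the remaining genes the nearest H3K9me3 island was between 43.4 kb (Pou5f1) and 484.6 kb (Dnmt3b) away in ESCs, and between 20.8 kb (Sall4) and 160.4 kb (Dnmt3b) in PiCs, Esrrb and Nanog aside.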

How the data were processed

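Nuclei were sonicated, histone-bound DNA was pulled down and PCR-amplified libraries were sequenced on a SOLiD instrument, per the labels' protocols. Each library has its own list of islands from SICER on mm9, per the submitters' processing notes. The version, thresholds, aligner, duplicate handling and any use of the input as control were not given in the sources used here. The deposited whole number of each island was read as its count of tags, not scaled to library size. Islands lie on a grid of 200 bp, so edges are known to that step, and positions are 1-based. Groups were taken from the sample titles.

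The members and lists were chosen with earlier results of these data known. Gene spans came from the rule that names the genes, and strand from the RefSeq promoter table or general knowledge. Density is tags per kb of island, with exact 95% Poisson intervals, and ratios carry exact binomial ones. All intervals cover counting error only. Background values come from all whole tiles of 10 kb, or of a span's width where stated, between the chromosome start and the last island, or from all islands or island pairs of a list. The genes named are the 8 members and, where an island reaches past a span, neighbours in the gene table. A wider list of pluripotency and lineage genes was not analysed here, since the gene table is of GRCm38.p6 and not mm9. The overlap functions were tested on simulated islands. Python 3.11.15, numpy 2.4.6, scipy 1.17.1 and matplotlib 3.10.9 were used. Alternatives were other selections and joinings of islands, wider spans, other limits and other rankings. Those for the free 5′ edge and for the count in the top 10% were chosen after seeing the data.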

Additional observations from a re-analysis of the deposited data

How the results depend on the processing

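No paired analysis was possible because there was only 1 library a group, and for the same reason no replicate could be left out. Joining islands over 2 kb or 5 kb left the counts of genes and the median covers recomputed under it within their limits. No gap of 5 kb or less between islands lay within a span, so joining could not alter these values. An overlap of 1 kb also left the counts of spans touched and of spans with more PiC islands the same, the only values it was run for. Each island lay inside its span over 2 kb or more, so this limit could not alter them either. With 80% of the span required, 3 genes in ESCs and 4 in PiCs were covered by H3K36me3. With the better 50% of each list, or with lists of equal length, Sox2 and Klf4 lost their PiC islands, so 2 spans differed 2-fold or more. Esrrb lost its 5′ PiC island, and 31.8% of its span stayed covered. The genes with a free 5′ edge and a passed 3′ edge in PiCs then numbered 5, against 7 in the full list. The limit of 1.5-fold gave 1 such span. The better 50% of the ESC list left 0 spans with H3K9me3. Spans widened by 5 kb had H3K9me3 at 2 genes in ESCs and 1 in PiCs, and a median H3K36me3 cover of 62.4% in PiCs, and 11 of 16 covers of single genes fell below their interval over 200 bp windows. The median rank from the top, 6.70% in ESCs and 8.20% in PiCs by tags per kb, was 19.9% and 18.1% by total tags and 43.8% and 27.4% by island width. Among islands within 2-fold of the same width it was 13.0% in PiCs. The genes in the top 10%, 5 in ESCs and 6 in PiCs, numbered 2 and 3 by total tags, 1 and 2 by width, and 2 in PiCs among islands of like width. Total tags and width are other quantities than tags per kb, whereas the ranking among islands of like width orders tags per kb too. The cause of the differences was not tested.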

Other observations

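The genes differed in how alone their H3K36me3 islands stood. By the nearest other island of the list, Esrrb and Klf4 stood farthest from others, with gaps of 148.4 kb and 130 kb in ESCs and 156.8 kb and 132.8 kb in PiCs. On its 5′ side Klf4 had no other island for 1210.8 kb in ESCs and 1212.2 kb in PiCs. Pou5f1 had a near neighbour, an island of 13.8 kb that began 2 kb past its own in ESCs and one of 17.4 kb at 3.2 kb in PiCs. In the RefSeq order Tcf19 follows Pou5f1 on that side. Tcf19 was not placed on mm9, so whether it lies under the Pou5f1 island or its neighbour is not known. Sox2 had an island 2.8 kb past its own in ESCs (15.8 kb wide) and 6 kb past it in PiCs (5.8 kb wide), while the next on the 5′ side was 570.6 kb away in ESCs and 569.6 kb in PiCs.

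Past Nanog, on the side where Slc2a3, a glucose transporter gene, is the next coding gene, an island stood 6.2 kb away in ESCs and 5.8 kb in PiCs. It was denser than that of Nanog in both lists, with 350.7 tags per kb against 211.5 in ESCs and 193.0 against 99.1 in PiCs. Zfp42 had an ESC island of 5.6 kb with 57.7 tags per kb 48.8 kb from its own on the 5′ side, where the next PiC island was 1633.2 kb away. That ESC island was below its list median of 71.3 tags per kb. How often such an island has no PiC island over it was not counted. These neighbours were named after their values were seen.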
